A study of Mus musculus with 28 samples.

Results

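Bone marrow-derived macrophages (BMDMs) that had been kept for 16 h with lipopolysaccharide (LPS), the outer membrane glycolipid of Gram-negative bacteria, were compared with untreated BMDMs of the same time point by bulk RNA sequencing. The comparison used 9 of the 28 cultures of a study that asked how von Willebrand factor acts on macrophages, with LPS as its reference stimulus. The LPS group had 4 cultures at 100 ng/ml, and the control group had 5 cultures that received PBS. The cells of both groups were grown with M-CSF from the marrow of C57/B6JB mice 8 to 12 weeks old, and both groups were incubated in fresh medium with 1 mM CaCl2. The labels number the cultures of a group as biological replicates but do not say whether they came from separate mice, so p values measure the spread between these cultures. All genes were members of the comparison, and 7994 of the 54532 in the count table passed the expression filter of 10 TPM (transcripts-per-million) in at least 1 of the 9 cultures.

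LPS is sensed by Toll-like receptor 4 with its co-receptor CD14. The receptor signals through NF-kappaB and MAP kinases to inflammatory genes, and through IRF3 to type I interferon, which acts back on the cells and raises interferon-stimulated genes. In macrophages the early wave of cytokine transcription is followed over hours by feedback inhibitors, changes in metabolism and, in cells that were dividing under M-CSF, arrest of growth. At 16 h the cells are past that early wave.

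Total counts per culture lay between 50048543 and 72349526 in controls and between 49191460 and 66425251 with LPS. All 10 macrophage markers were expressed, with a summed level of 8268 to 37580 TPM in controls and 9872 to 19900 TPM with LPS. Of these markers, Csf1r (the M-CSF receptor), Cd68, Mertk, Itgam and Spi1 were among those not called, Cd14, Fcgr1 and Adgre1 (F4/80) were higher, Adgre1 at 1.11 on the log2 scale and below the 2-fold threshold without Control replicate 5 (0.97) or without LPS replicate 3 (0.95), and Lyz2 (lysozyme) was lower with LPS. The markers of T cells, NK cells and erythroid cells summed to at most 1.03 TPM in any culture, and Ly6g, Mcpt4, Fcer1a and Tpsb2 were at 0 in all 9. The 5 markers of B cells summed to 13.8 to 21.2 TPM in controls and 1.60 to 4.35 TPM with LPS, the 4 of eosinophils to 7.98 to 18.4 and 0.837 to 4.13, the 6 of dendritic cells to 0.482 to 1.31 and 6.81 to 11.7, and the 4 of endothelial cells to 0.169 to 0.646 and 8.53 to 17.3. In each of these 4 lists, 1 gene alone passed the expression filter and was called. Fibroblast markers summed to 3.78 to 64.5 TPM in controls and 13.4 to 88.7 TPM with LPS, the 7 of neutrophils to at most 6.92, the 5 of mast cells and basophils to at most 4.63 and the 4 of megakaryocytes to at most 14.3, and none of these genes was called. The part of these cells in the results was not tested. In bulk RNA, fewer cells of a type and less RNA per cell cannot be told apart.

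A pair of cultures stood apart from their groups. Control replicate 5 correlated with the mean of the other controls at Pearson r = 0.911 and LPS replicate 4 with the other LPS-treated cultures at 0.954, against 0.982 to 0.997 in the other 7. They had 16690 and 16011 genes with a count, against 19029 to 19976. Ribosomal protein genes took 11.4% of the counts in Control replicate 5 and 5.54% to 6.42% in the other controls, and 5.23% in LPS replicate 4 against 2.65% to 3.46%. The deviations of both cultures ran the same way, with a correlation of 0.88 across the tested genes, which are not independent. In each, the 1999 tested genes with the shortest exon length lay above the group median (at 0.39 and 0.35 on the log2 scale) and the 1999 with the longest lay below it (at −0.23 and −0.26). LPS replicate 2 (0.16 and −0.10) and Control replicate 1 (0.05 and −0.07) leaned the same way by less. Control replicates 2 to 4 and LPS replicates 1 and 3 leaned the other way. Results that turn on the deviating pair are given with and without both cultures.

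A gene was called when its adjusted p was under 0.05 and its level differed more than 2-fold (edgeR's quasi-likelihood test with Benjamini-Hochberg adjustment). At 16 h, 27.6% of the tested genes were called, 15.3% higher and 12.4% lower with LPS. Fold changes are relative to the typical gene, whose median log2 fold change was −0.03. When cultures were scaled by library size alone that median was −0.59, and 782 genes were higher and 2319 lower. The increases were the larger: 243 genes rose by more than 4 on the log2 scale and 64 fell by as much. The levels of the 2 groups did not overlap for 47.9% of all tested genes, and for 2072 of the 2210 called genes. Without both deviating cultures 2183 of the called genes could still be tested, of which 2110 were called in the same direction, and 133 further genes were called. In the plot of level against change, the increases reached the top of the expression range and the large decreases did not.

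**Figure D1:**
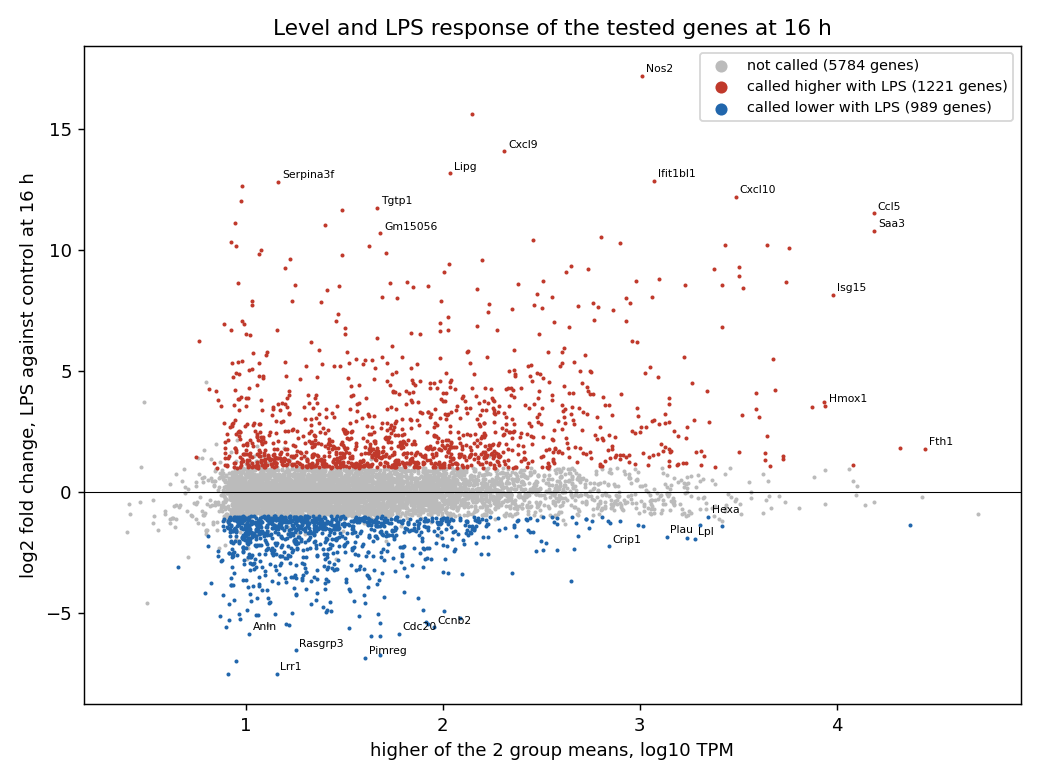
Each point is 1 of the 7994 tested genes, with the higher of the 2 group means (log10 TPM) on the horizontal axis and the log2 fold change of LPS against control at 16 h on the vertical axis; red and blue points are the 1221 higher and 989 lower genes. Ccl5, Saa3 and Isg15 combine a large increase with a level near the top of the range, while the genes with the largest decreases, such as Lrr1 and Pimreg, lie below 100 TPM.

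Among called genes whose groups did not overlap, the transcripts that gained most in TPM were Fth1, Saa3, Ccl5, B2m, Isg15, Bst2, Hmox1 and Ifitm3. Fth1, the heavy chain of the iron store ferritin, went from a mean of 11900 TPM in controls to 28236 TPM with LPS. Its CPM (counts-per-million) was 14489, 13007, 13296, 13650 and 16866 in the control cultures and 42074, 51857, 41654 and 54378 in the LPS-treated cultures. All LPS-treated cultures lay above all controls, and the log2 fold change was 1.77 (SE 0.15, adjusted p = 5.5e-06). Saa3, an acute phase apolipoprotein that macrophages secrete, was at 7.40, 5.55, 2.24, 6.48 and 37.8 CPM in controls and at 12517, 18000, 14321 and 36707 CPM with LPS. The highest value of each group was that of the deviating culture, and the log2 fold change was 10.78 (SE 1.08) with all cultures and 11.46 without both. Bst2 (tetherin), which holds budding virus at the cell surface, was at 199 to 647 CPM in controls and 2473 to 6624 CPM with LPS, again with the deviating cultures highest (log2 fold change 3.72, SE 0.47).

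By the same rule the transcripts that lost most in TPM were Lpl, Ptma, Hexa, Cd9, Plau, Ckb, mt-Nd2 and Crip1. Lyz2, whose groups overlapped and which is described with the antimicrobial proteins, had a larger loss, from 23629 to 6197 TPM. Lpl, the lipoprotein lipase that frees fatty acids from triglyceride, went from 1902 to 352 TPM. Its level was 5721, 5875, 5694, 6445 and 11864 CPM in controls and 1249, 1511, 1806 and 2667 CPM with LPS, without overlap, and the log2 fold change was −1.94 (SE 0.32, adjusted p = 0.00063). Cd9, a tetraspanin of the cell surface, fell from 1036 to 1289 CPM to 266 to 352 CPM (log2 fold change −1.92, SE 0.12). Plau, the urokinase plasminogen activator, fell by 1.85 on the log2 scale (SE 0.20). For Hexa, Ckb and Crip1, Control replicate 5 stood far above the other controls. It held 2959 CPM of Hexa against 1233 to 1340.2 in the other controls, 2606 CPM of Ckb against 719.9 to 806, and 1728 CPM of Crip1 against 288 to 369. Hexa (a lysosomal hexosaminidase) had a log2 fold change of −1.04 with all cultures and −0.89, below the threshold, without both deviating cultures. Hexa was called in 5 of the 9 fits that left out 1 culture, where its value was as small as −0.70. Ckb (creatine kinase B, −1.42) was not called without Control replicate 5 (−0.85) or when any of LPS replicates 1 to 3 was left out, and Crip1 (−2.25) was not called when any of these LPS replicates was left out. Without both deviating cultures Ckb (−1.25) and Crip1 (−2.06) were called.

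**Figure D2:**
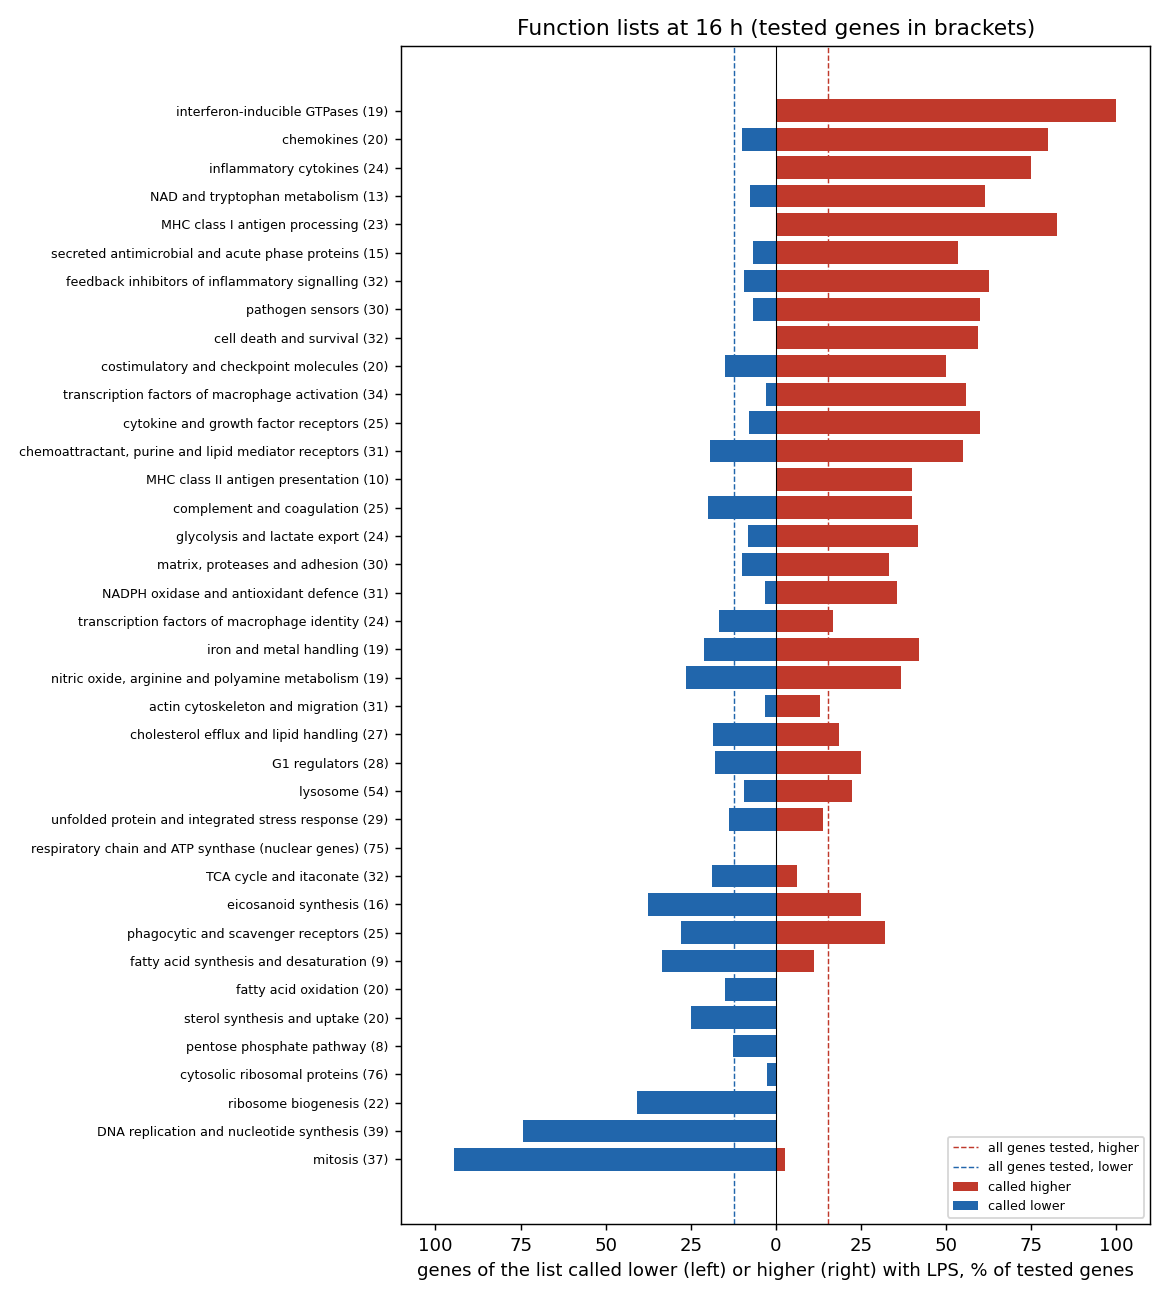
Bars give, for each of 38 function lists, the percentage of its tested genes called higher (red, to the right) or lower (blue, to the left) with LPS at 16 h; the number of tested genes is in brackets, lists are ordered by their median log2 fold change, and dashed lines mark the shares over all tested genes (15.3% and 12.4%). Interferon-inducible GTPases stand at the top with 19 of 19 higher, and mitosis at the bottom with 35 of 37 lower; 15 of the former passed the expression filter through LPS-treated cultures alone and 33 of the latter through controls alone.

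The expression filter itself favours genes that change, since 457 tested genes passed it through LPS-treated cultures alone and 1639 through controls alone. Where most of a list passed in that way, and for some lists where fewer did, its counts without any filter on low levels are given too. Most secreted signals were higher with LPS. Of 24 tested inflammatory cytokines, 18 rose and none fell, with a median log2 fold change of 3.62 over the list, against −0.03 over all tested genes. Of the 24, 9 passed the filter through LPS-treated cultures alone. With no filter, 25 of 32 were called higher and none lower. Beyond Il6 and Il1b the list was led by Il1a (interleukin 1 alpha), at 0 to 2.07 CPM in controls and 291, 195, 280.2 and 110.2 CPM with LPS (log2 fold change 8.60, SE 1.05). Of 20 chemokines, 16 rose and 2 fell (median 4.05). Of the 20, 7 passed the filter through LPS-treated cultures alone. With no filter, 18 of 23 were called higher and 1 lower. Transcripts of the attractants of activated T cells that share the receptor CXCR3 led the raised chemokines. Cxcl9 was at 0, 0.0235, 0, 0.0488 and 0 CPM in controls and at 278, 342, 348 and 200.5 CPM with LPS. Cxcl10 was at 0.602 to 0.870 CPM in controls and at 3453, 3653, 2809.5 and 3422 CPM with LPS (log2 fold change 12.20, SE 0.20, adjusted p = 1.5e-09). Cxcl11, which is annotated as a polymorphic pseudogene, had 1 count in all controls together against 46800 with LPS. Whether it gives a working protein in these cells was not tested. Of its exon length, 41.7% overlaps another gene, so its level is uncertain. Another gene among the largest fold changes, Gm15056, had 2 counts in all controls and 11.5, 14.1, 11.0 and 15.8 CPM with LPS, a ratio of 2170 with a counting interval of 599.9 to 17926. Ccl5, which draws T cells and monocytes, was at 1.98 to 3.32 CPM in controls and at 6849.9, 8022, 6371 and 7374 CPM with LPS, and was the third largest gain in TPM of the called genes. The 2 chemokines that fell were Cxcl14, at 151 to 235 CPM in controls and 24.4 to 42.0 CPM with LPS (log2 fold change −2.45, SE 0.19), and Ccl6 (−1.05, SE 0.17), which was at −0.98 and −0.99, below the threshold, without Control replicate 1 or 3.

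Receptors for these signals moved in both directions. Of 25 cytokine and growth factor receptors, 15 rose and 2 fell (median 1.18). Il15ra, which presents interleukin 15 to lymphocytes, rose by 5.47 (SE 0.47), Csf3r, the G-CSF receptor, by 3.02 (SE 0.25) and Il4ra by 2.90 (SE 0.18) on the log2 scale. The receptors that fell were Tgfbr1, a TGF-beta receptor (log2 fold change −2.15, SE 0.13), and Ifngr1, the ligand-binding chain of the interferon gamma receptor (−1.51, SE 0.18). Of 31 receptors for chemoattractants, purines and lipid mediators, 17 rose and 6 fell (median 1.17). Of the 31, 9 passed the filter through LPS-treated cultures alone and 6 through controls alone. With no filter, 19 of 42 were called higher and 8 lower. The formyl peptide receptors Fpr1 and Fpr2, which sense bacterial peptides, were at 0.193 to 1.40 and 1.06 to 2.33 CPM in controls and at 179 to 226 and 289 to 325 CPM with LPS. Ccr7, the receptor that leads cells to lymph nodes, reached 6.24 to 11.5 CPM from at most 0.391 CPM. In the other direction Gpr183, a receptor for oxysterols, was at 65.0, 75.4, 67.4, 59.8 and 38.2 CPM in controls and 3.88, 3.84, 2.97 and 2.65 CPM with LPS (log2 fold change −4.16, SE 0.23). Cx3cr1, the fractalkine receptor (−3.44, SE 0.47), and Cxcr4, the receptor of CXCL12 (−2.76, SE 0.14), fell as well.

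The interferon-inducible GTPases, large proteins that attack vacuoles of intracellular microbes, had 19 tested genes of 24, and these 19 rose with a median log2 fold change of 7.66. Of the 19, 15 passed the filter through LPS-treated cultures alone, which favours a higher level there, so that count is no support. With no filter on low levels, 24 of 24 were called higher (median 7.94). Gbp5 was at 0.418 to 1.01 CPM in controls and at 1097, 872, 1020 and 577 CPM with LPS (log2 fold change 10.40, SE 0.40, adjusted p = 6.5e-08). Gm4841 had no count in any control and at least 1493-fold more with LPS, with the floor set at 3 counts over the control group. It passed the filter through LPS replicate 4, which was highest at 26.5 CPM against 7.79 to 12.8 CPM, and was not tested without that culture. Tgtp1 reached 21.8 to 95.2 CPM from at most 0.0404 CPM, but its sequence is largely shared with Tgtp2. Outside the list, Ifit1bl1, of the family of interferon-induced proteins with tetratricopeptide repeats, was at 0.047 to 0.342 CPM in controls and at 1730.2, 1295, 1269.6 and 735 CPM with LPS, and Isg15, a ubiquitin-like modifier, was at 10.1 to 17.0 CPM and at 3078, 3716, 2519 and 4978 CPM. For each of these genes the lowest LPS-treated culture lay far above the highest control.

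Promoters of 3 genes from the raised groups are shown because their windows hold the motifs that were counted over all genes. The sequences are from RefSeq (GRCm38.p6), read 5′ to 3′ on the gene's strand over the 250 bases before the annotated start. Capitals mark matches on either strand to the core of the interferon-stimulated response element, GAAANNGAA, or to the kappaB consensus. The windows are chr5:92348890-92349139 on the minus strand for Cxcl10, chr3:142496684-142496933 on the plus strand for Gbp5 and chr4:156200819-156201068 on the minus strand for Isg15.
Cxcl10: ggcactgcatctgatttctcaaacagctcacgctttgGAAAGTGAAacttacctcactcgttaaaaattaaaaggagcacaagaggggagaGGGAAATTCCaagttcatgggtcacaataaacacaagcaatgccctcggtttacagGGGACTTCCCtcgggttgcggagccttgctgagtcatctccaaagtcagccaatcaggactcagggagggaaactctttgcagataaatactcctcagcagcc
Gbp5: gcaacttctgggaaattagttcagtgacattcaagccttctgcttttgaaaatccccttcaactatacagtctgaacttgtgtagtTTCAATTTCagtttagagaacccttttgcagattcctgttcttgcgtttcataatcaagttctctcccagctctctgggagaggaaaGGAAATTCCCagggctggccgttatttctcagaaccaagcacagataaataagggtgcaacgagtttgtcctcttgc
Isg15: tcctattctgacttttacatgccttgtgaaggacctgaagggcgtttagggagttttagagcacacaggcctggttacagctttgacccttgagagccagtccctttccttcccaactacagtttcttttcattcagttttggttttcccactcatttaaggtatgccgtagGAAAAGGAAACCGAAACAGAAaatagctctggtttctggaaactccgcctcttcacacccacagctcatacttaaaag
Cxcl10 holds 1 response element core, 213 bases before the start, and 2 kappaB matches at 159 and 103 bases. Gbp5 holds 1 of each, at 164 and 77 bases. Isg15 holds 3 cores that overlap each other, from 78 to 66 bases before the start. RefSeq windows from 250 bases before to 50 after the start were found for 937 of the 1221 raised genes, 750 of the 989 lowered genes and 10 of the 19 GTPases; a gene can have several windows. The response element core was in 8.56% of all 32851 windows, in 15.4% of those of raised genes, in 6.99% of those of lowered genes and in 9 of the 11 windows of the GTPases. The kappaB consensus was in 4.51% of all windows, 8.78% of those of raised and 3.71% of those of lowered genes, and in 5 of the 13 windows of the tested chemokines. It was also in 4 of the 31 windows of the tested mitosis genes and 2 of the 18 of the sterol synthesis genes. The TATA box, TATAAA, was in 13.6% of all windows, 10.9% of those of raised genes, 6.25% of those of lowered genes, 6.20% of those of tested genes that were not called and 5 of the 13 chemokine windows. In tested genes that were not called, the response element core was in 6.69% and the kappaB consensus in 4.80% of windows. These matches are descriptions of the sequence and were not tested.

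Most sensors and most feedback inhibitors rose. Of 30 pathogen sensors, 18 rose and 2 fell (median 1.60). Zbp1, a sensor of Z-form nucleic acid, was at 14.5 to 22.5 CPM in controls and at 634 to 737 CPM with LPS (log2 fold change 5.32, SE 0.16). Clec4e, the C-type lectin Mincle, rose by 5.16 (SE 0.27) and Ifih1, the cytosolic RNA sensor MDA5, by 4.54 (SE 0.23). The 2 that fell were also C-type lectins, Clec7a (Dectin-1, −1.57, SE 0.13) and Clec5a (−1.10, SE 0.18). Of 32 feedback inhibitors of inflammatory signalling, 20 rose and 3 fell (median 2.24). Usp18, which shuts off the interferon receptor, was at 2.15 to 7.55 CPM in controls and 845 to 1081 CPM with LPS. The suppressors of cytokine signalling Socs3 and Socs1 rose by 7.03 (SE 0.45) and 6.57 (SE 0.29). Dusp6, a phosphatase of ERK, fell by 1.58 (SE 0.12), and Zfp36l1, an RNA-decay factor, had a log2 fold change of −1.22 (SE 0.29) with all cultures and −0.93, below the threshold, without Control replicate 5. Of the exon length of Zfp36l1, 55.9% overlaps another gene.

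Of 34 transcription factors of macrophage activation, 19 rose and 1 fell (median 1.34). Irf7, the master factor of late interferon transcription, was at 40.4, 58.5, 57.0, 40.4 and 21.1 CPM in controls and at 5086, 5427, 4505 and 3914 CPM with LPS (log2 fold change 6.80, SE 0.33). Batf2 (4.50, SE 0.14) and Stat2 (4.29, SE 0.44) followed. The factor that fell was Egr2 (−2.74, SE 0.14). Of 24 factors of macrophage identity, 4 rose and 4 fell, and their median of 0.36 became −0.20 when cultures were scaled by library size alone. Their shares, 16.7% each, were near the 15.3% higher and 12.4% lower of all tested genes. The raised factors were led by Spic, which specifies macrophages of the splenic red pulp and is induced by heme, at 1.37 to 2.44 CPM in controls and 62.2, 84.5, 68.3 and 77.7 CPM with LPS (5.27, SE 0.19), and by Nr1h3, the liver X receptor alpha (2.46, SE 0.10). The lowered ones were Mef2c (−2.26, SE 0.20), Pparg, the fat-sensing receptor of alveolar macrophages (−1.81, SE 0.19) and Cebpa (−1.67, SE 0.13), with Mef2a, named after its values were seen, at −1.30.

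Antigen presentation genes rose along the class I route (82.6% of those tested) and, in a smaller share, along the class II route (40.0%). Of 23 genes for MHC class I processing, 19 rose and none fell (median 2.84). B2m, the light chain shared by all class I molecules, was at 2108 to 2682 CPM in controls and 7752 to 9249.5 CPM with LPS (log2 fold change 1.82, SE 0.12). The non-classical heavy chain gene H2-T22 rose by 4.75 (SE 0.14); H2-Q6 and H2-Q7 had values of 5.66 and 5.03 but share sequence with other class I genes. Of 10 class II genes, 4 rose and none fell (median 0.96), among them H2-Eb1 (2.87, SE 0.26), H2-Ab1 (2.32, SE 0.19) and March1, a ubiquitin ligase that removes class II from the surface (3.12, SE 0.22). Of 20 costimulatory and checkpoint molecules, 10 rose and 3 fell (median 1.40). Cd274, the checkpoint ligand PD-L1, was at 24.3, 24.7, 23.1, 24.2 and 10.7 CPM in controls and at 1895, 1538, 1769 and 1024 CPM with LPS (6.22, SE 0.32). Cd40, which receives help from T cells, rose by 5.79 (SE 0.12). Cd276 (−2.15, SE 0.20), Havcr2 (TIM-3, −1.59, SE 0.26) and Tnfsf8 (−1.54, SE 0.35) fell.

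**Figure D3:**
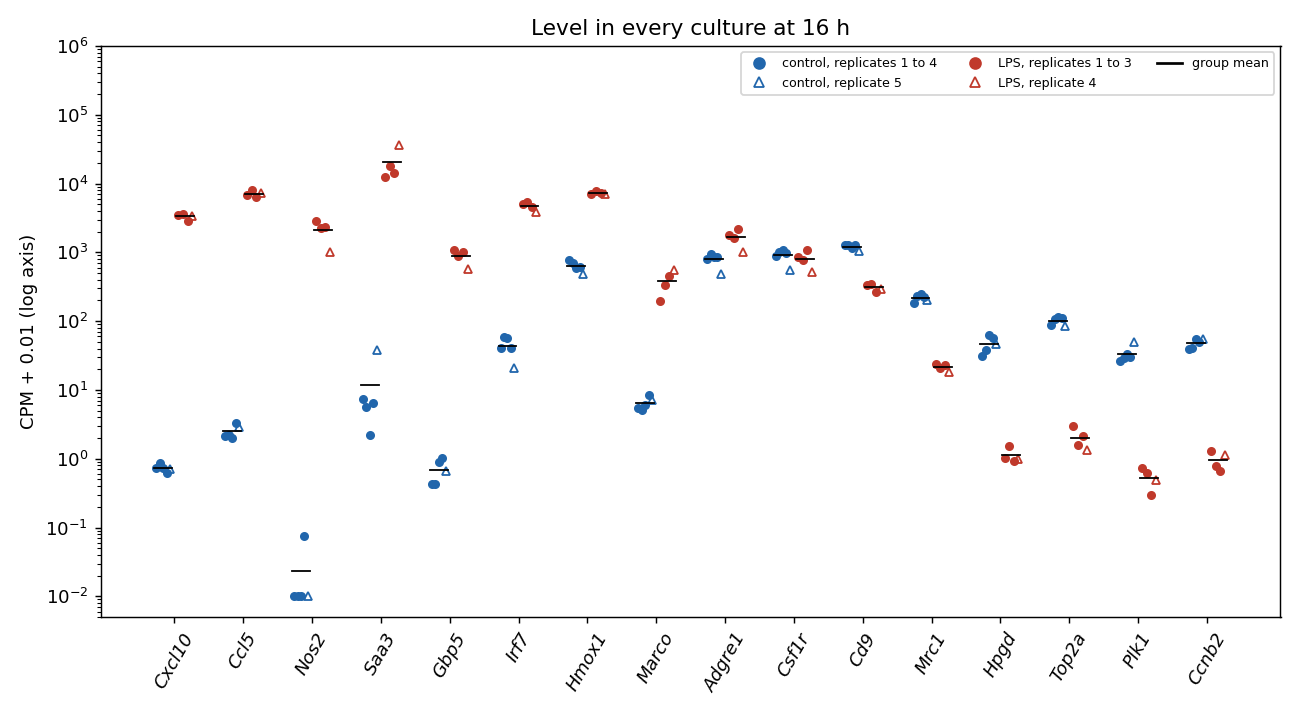
Levels of 16 genes in each of the 9 cultures at 16 h, as CPM + 0.01 on a log axis; blue symbols are the 5 control and red symbols the 4 LPS-treated cultures, triangles mark the deviating cultures (Control replicate 5 and LPS replicate 4), and lines are group means. The groups overlap for Csf1r alone, and the triangles of Saa3 lie above, and that of Nos2 with LPS below, the other cultures of their group.

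Enzymes of both main routes of arginine use, to nitric oxide and to ornithine, rose. In the list of nitric oxide, arginine and polyamine metabolism, 7 of 19 genes rose and 5 fell (median 0.33, and −0.24 with library size scaling). Nos2, the inducible nitric oxide synthase, had 0.0651 CPM in Control replicate 4, 0 in the other controls and 2863, 2253, 2361 and 999.9 CPM with LPS. Arg1, the arginase that competes for the same substrate, was at 1.70, 0.952, 0.803, 0.488 and 0.213 CPM in controls and at 283, 214, 114 and 114 CPM with LPS (7.78, SE 0.61). Slc7a2, the arginine transporter of activated macrophages, rose by 6.70 (SE 0.24). The genes that fell included Srm (spermidine synthase, −1.85, SE 0.18) and Sms (spermine synthase, −1.13, SE 0.13) of polyamine synthesis and Qdpr, which recycles the cofactor of nitric oxide synthase (−1.23, SE 0.21).

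Of 24 genes of glycolysis and lactate export, 10 rose and 2 fell (median 0.68). Pfkfb3, which makes the activator of phosphofructokinase, was at 32.4, 33.6, 31.2, 31.6 and 13.9 CPM in controls and at 1016, 799.8, 887 and 601 CPM with LPS (4.89, SE 0.29). Slc2a6, a hexose transporter of the lysosome, rose by 4.17 (SE 0.12) and Hk3, a hexokinase, by 2.22 (SE 0.14), while Aldoc (−2.48, SE 0.16) and Ldhb (−2.02, SE 0.14) fell. In the pentose phosphate pathway 1 of 8 genes fell, 12.5% against 12.4% of all tested genes, and none rose. The gene that fell was Pgls, named after its values were seen, at −1.34 with all cultures, where the groups overlapped. Pgls was at −0.75, below the threshold, without Control replicate 5, and at −1.11 and called without both deviating cultures. It was called in 5 of the 9 fits that left out 1 culture. In the list of the TCA cycle and itaconate, 2 of 32 rose and 6 fell (median −0.12). Acod1, which makes itaconate from aconitate, was at 3.29, 4.11, 2.58, 12.6 and 1.26 CPM in controls and at 5925, 5449, 6850.2 and 3606 CPM with LPS (10.20, SE 0.79). Pdk3, a kinase that inhibits pyruvate dehydrogenase, had a log2 fold change of 1.04, which lay between 0.92 and 1.15 in the 9 fits that left out 1 culture and below the threshold without Control replicate 5 (0.92), LPS replicate 1 (0.95) or LPS replicate 2 (1.00). The isocitrate dehydrogenases Idh2 (−2.34, SE 0.22), and Idh3a (−1.49, SE 0.09), and Suclg2 of succinyl-CoA ligase (−1.47, SE 0.13), fell. None of 75 nuclear genes of the respiratory chain and ATP synthase was called in the edgeR test (median −0.08). Of the 75, 9 had an unadjusted p under 0.05, against 4698 of all 7994 tested genes. DESeq2 and limma voom called none either, nor did edgeR without both deviating cultures, whereas 8 were lower with library size scaling. Of 11 protein-coding genes of the mitochondrial genome, a group picked after its values were seen, 3 were lower and none higher (median −0.68). One of them, mt-Nd2, a subunit of complex I, was at 347, 381, 367, 348 and 258 CPM in controls and 133, 133, 168 and 78.0 CPM with LPS (−1.37, SE 0.21).

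Of 20 genes of fatty acid oxidation, 3 fell and none rose (median −0.35): Hadh (−1.71, SE 0.15), Acadm (−1.21, SE 0.15) and Acot2, whose sequence is in part shared with related genes. The share that fell, 15.0%, was near the 12.4% of all tested genes. Of 20 genes of sterol synthesis and uptake, 5 fell and none rose (median −0.44), among them Stard4, a sterol carrier (−2.08, SE 0.14), Dhcr7, the last step to cholesterol (−1.87, SE 0.31), and Scap, the sterol sensor (−1.65, SE 0.24). Of these 20 sterol genes, 7 passed the filter through controls alone. With no filter, 6 of 25 were called lower and none higher. Of 9 genes of fatty acid synthesis and desaturation, 3 fell and 1 rose. The one that rose was Acsl1, which activates long-chain fatty acids, at 16.0 to 25.8 CPM in controls and 599, 485, 740.5 and 327 CPM with LPS (4.62, SE 0.26), and Fads1, a desaturase, fell by 2.24 (SE 0.09). Outside the list Lipg, the endothelial lipase that cuts phospholipids of lipoproteins, was at 0 to 0.0512 CPM in controls and 333, 255, 253 and 118 CPM with LPS (13.18, SE 0.57), among the largest fold changes of all genes. In cholesterol efflux and lipid handling 5 of 27 rose and 5 fell (median 0.27, and −0.30 with library size scaling). These shares were 18.5% each, against 15.3% higher and 12.4% lower of all tested genes. Fabp3, a fatty acid-binding protein, had a value of 4.33 (SE 0.31) but shares sequence with a pseudogene. Hilpda, a protein of lipid droplets (3.26, SE 0.36), and Ch25h, which makes the antiviral 25-hydroxycholesterol (2.56, SE 0.20), rose, and Cyp27a1, which oxidises cholesterol (−3.18, SE 0.42), and the lipid receptor Trem2 (−1.19, SE 0.12) fell.

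Eicosanoid enzymes moved in both directions. Of 16 tested, 4 rose and 6 fell (median −0.15). Ptgs2, the inducible cyclooxygenase, was at 1.70 to 6.54 CPM in controls and 543, 399, 331 and 377 CPM with LPS (6.69, SE 0.44), and Ptges, the prostaglandin E synthase, was at 1.55 to 3.23 CPM and 394, 422, 435 and 436 CPM (7.55, SE 0.25). Hpgd, which inactivates prostaglandins, was at 31.2, 38.6, 62.7, 57.6 and 45.9 CPM in controls and at 1.00, 1.54, 0.911 and 0.983 CPM with LPS (−5.37, SE 0.29). Ephx1, a hydrolase of lipid epoxides, fell by 3.35 (SE 0.30). Ltc4s, the leukotriene C4 synthase, had a log2 fold change of −2.31 and was not called when any of LPS replicates 1 to 3 was left out.

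Of 31 genes of the NADPH oxidase and antioxidant defence, 11 rose and 1 fell (median 0.53, and −0.04 with library size scaling). Sod2, the mitochondrial superoxide dismutase, was at 77.0 to 112 CPM in controls and 2235 to 3813 CPM with LPS (4.98, SE 0.22). Slc7a11, the cystine importer (3.79, SE 0.27), and Glrx, glutaredoxin (3.65, SE 0.15), rose. Hmox1, which breaks down heme and frees its iron, was at 767, 705, 597, 616 and 487 CPM in controls and at 7069, 7833, 7374 and 7010 CPM with LPS (3.57, SE 0.15). Of 19 genes of iron and metal handling, 8 rose and 4 fell (median 0.36, and −0.21 with library size scaling). With Fth1, the siderophore-binding Lcn2 (9.33, SE 0.86), the ferroxidase Cp (6.19, SE 0.44) and the hemoglobin scavenger Hp (5.77, SE 0.30) rose. The iron exporter Slc40a1 (ferroportin, −1.52, SE 0.20), the reductase Steap3 (−1.50, SE 0.21) and the transferrin receptor Tfrc (−1.39, SE 0.26) fell.

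Of 13 genes of NAD and tryptophan metabolism, 8 rose and 1 fell (median 3.06). Cd38, which consumes NAD at the cell surface, was at 1.85, 1.86, 1.01, 1.87 and 0.831 CPM in controls and at 151, 177, 164 and 246 CPM with LPS (6.99, SE 0.33). The others that rose included the interferon-induced ADP-ribosyltransferases Parp10 (4.00, SE 0.14) and Parp14 (3.77, SE 0.39). The one that fell, named after its values were seen, was the DNA damage sensor Parp1 (−1.24).

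Of 22 genes of ribosome biogenesis, 9 fell and none rose (median −0.92), including Dkc1 (−2.05, SE 0.15) and Gar1 (−1.79, SE 0.22), partners in RNA pseudouridylation, and Npm3 (−1.61, SE 0.17). Of 76 cytosolic ribosomal proteins, 2 fell and none rose (median −0.49); these were Rpl10a (−1.28, SE 0.18) and Rpl3 (−1.21, SE 0.19), and both share sequence with pseudogenes. The deviating cultures had the highest share of ribosomal protein counts in their groups, and without both of them 3 of these genes fell. In the unfolded protein and integrated stress response 4 of 29 rose and 4 fell (median 0.14, and −0.41 with library size scaling). These shares, 13.8% each, were near the 15.3% higher and 12.4% lower of all tested genes. Eif2ak2, the RNA-activated kinase PKR (2.67, SE 0.13), rose, and its relative Eif2ak3, the stress kinase PERK of the endoplasmic reticulum (−1.65, SE 0.12), fell.

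Genes of mitosis were lower with LPS. Of 37 tested genes, 35 fell and 1 rose, with a median log2 fold change of −4.23. Of the 37, 33 passed the filter through controls alone, which favours a lower level with LPS, so that count is no support. With no filter on low levels, 41 of all 43 genes of the list were called lower and 1 higher (median −4.20). Ccna2 (cyclin A2) was at 53.7, 53.8, 70.2, 64.1 and 104 CPM in controls and at 0.758, 0.345, 0.312 and 1.11 CPM with LPS (−6.75, SE 0.46). Ccnb2 (cyclin B2) was at 39.5, 40.1, 54.7, 49.9 and 54.9 CPM in controls and 1.29, 0.768, 0.647 and 1.13 CPM with LPS (−5.60, SE 0.26, adjusted p = 1.7e-07). The kinase Plk1 (−5.95, SE 0.33), the kinase Pbk (−5.96, SE 0.29), the anaphase activator Cdc20 (−5.86, SE 0.28), the cytokinesis scaffold Anln (−5.86, SE 0.31) and the topoisomerase Top2a (−5.64, SE 0.27) fell to a similar depth, and every LPS-treated culture lay below every control for each. The control cultures differed from each other as well, with Control replicate 5 highest for Ccna2, Plk1 and Cdc20. Outside the list Pimreg, Lrr1 and the exchange factor Rasgrp3 were among the largest decreases (−6.86, −7.53 and −6.55). The exception in the list was Tpx2, a spindle assembly factor that activates Aurora A, at 45.3, 52.9, 58.8, 51.3 and 34.7 CPM in controls and 137, 119, 103 and 62.2 CPM with LPS (1.15, SE 0.23). Tpx2 was called in all 9 fits that left out 1 culture, but with library size scaling its value was 0.59 and it was not called.

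Of 39 genes of DNA replication and nucleotide synthesis, 29 fell and none rose (median −1.89), and 29 of the 39 had passed the filter through controls alone. With no filter, 34 of 46 were called lower and none higher (median −2.12). Rrm2, the limiting subunit of ribonucleotide reductase, was at 88.6, 90.7, 96.4, 91.2 and 121 CPM in controls and 5.02, 2.61, 2.88 and 2.07 CPM with LPS (−4.92, SE 0.28), and thymidine kinase Tk1 (−4.59, SE 0.37) and the methylation maintenance factor Uhrf1 (−3.93, SE 0.15) fell less. Of 28 G1 regulators, 7 rose and 5 fell (median 0.19, and −0.38 with library size scaling). Of the 28, 2 passed the filter through LPS-treated cultures alone and 8 through controls alone. With no filter, 8 of 30 were called higher and 4 lower. Mxd1, which displaces MYC from MAX, was at 5.96 to 9.97 CPM in controls and 571, 512, 406 and 307 CPM with LPS (5.81, SE 0.24). Myc itself was at 48.0, 45.9, 36.3, 37.6 and 35.1 CPM in controls and 9.63, 6.18, 4.75 and 4.36 CPM with LPS (−2.67, SE 0.25). Gadd45b and Gadd45g rose by 3.24 (SE 0.17) and 2.81 (SE 0.31), and the kinase inhibitor Cdkn2c fell by 3.48 (SE 0.16).

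The promoters of 2 lowered mitotic genes are shown for the motifs known from cell cycle genes. Capitals mark the CCAAT box and the cell cycle homology region, TTTGAA, on either strand, in the RefSeq sequence (GRCm38.p6) of chr9:70421555-70421804 on the minus strand for Ccnb2 and chr7:122159185-122159434 on the plus strand for Plk1.
Ccnb2: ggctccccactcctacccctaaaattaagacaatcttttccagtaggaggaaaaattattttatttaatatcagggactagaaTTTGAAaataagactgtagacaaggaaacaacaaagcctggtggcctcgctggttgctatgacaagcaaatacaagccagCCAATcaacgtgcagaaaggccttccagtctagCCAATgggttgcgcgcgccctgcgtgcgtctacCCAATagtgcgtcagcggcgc
Plk1: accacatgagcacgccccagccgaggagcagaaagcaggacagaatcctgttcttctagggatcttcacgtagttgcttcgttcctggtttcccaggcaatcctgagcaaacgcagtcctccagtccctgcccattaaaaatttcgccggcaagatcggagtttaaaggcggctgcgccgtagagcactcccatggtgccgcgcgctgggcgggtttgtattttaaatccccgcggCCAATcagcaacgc
Ccnb2 holds 3 CCAAT boxes, at 87, 54 and 21 bases before the start, and 1 match to TTTGAA at 167 bases. Plk1 holds 1 CCAAT box, at 14 bases. Windows from 250 bases before to 50 after the start were found for 29 of the 37 tested mitosis genes and 31 of the 39 replication genes. The CCAAT box was in 37.4% of all windows, 37.0% of those of tested genes not called and 44.3% of those of lowered genes. It was in 80.6% of the windows of mitosis genes, 60.5% of those of replication genes and 12 of the 18 of sterol genes. TTTGAA was in 17.9% of all windows, 16.9% of those of lowered genes, 11.2% of those of tested genes not called and 74.2% of those of mitosis genes. It was also in 5 of the 11 windows of the raised interferon-inducible GTPases. Without the 50 bases after the start, it was in 16.0% of all windows, 45.2% of those of mitosis genes and again 5 of 11 of the GTPases. The E2F site, TTTNGCGC, was in 1.38% of all windows, 4.56% of those of lowered genes, 2.54% of those of tested genes that were not called and 10 of the 38 windows of replication genes. Without the 50 bases after the start the values for lowered, not called and replication genes were 3.28%, 2.19% and 5 of 38. The sterol regulatory element core, TCACNCCA, was in 4.36% of all windows and 2.44% of those of lowered genes. It was in 3 of the 18 windows of the sterol genes and 2 of the 13 of the chemokines. Without the 50 bases after the start these were 3 of 18 and 0 of 13.

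Of 32 genes of cell death and survival, 19 rose and none fell (median 1.48). They included promoters and inhibitors of death. Mlkl, the pore former of necroptosis, was at 15.0 to 21.5 CPM in controls and 235 to 269 CPM with LPS (3.94, SE 0.13), and Xaf1, which antagonises an inhibitor of caspases, rose by 4.99 (SE 0.26). Bcl2a1a, a survival member of the BCL2 family, had a value of 4.92 but shares sequence with its gene copies.

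Of 25 phagocytic and scavenger receptors, 8 rose and 7 fell (median −0.18). Marco, a scavenger receptor for bacteria, was at 5.14 to 8.43 CPM in controls and 196, 332, 460.2 and 556 CPM with LPS (5.95, SE 0.34). Fcgr1, the high-affinity IgG receptor, was at 63.6 to 135 CPM in controls and 1979 to 2485 CPM with LPS, and Fcgr4 rose by 3.90 (SE 0.11). Mrc1, the mannose receptor CD206, was at 186, 228, 251, 222 and 203 CPM in controls and 23.6, 20.7, 22.7 and 18.4 CPM with LPS (−3.32, SE 0.13). Clec10a, a galactose lectin (−3.08, SE 0.24), and Gas6, which bridges dying cells to their receptors (−2.55, SE 0.16), fell too. Of 54 lysosome genes, 12 rose and 5 fell (median 0.16, and −0.39 with library size scaling), with Ctsc, the activator of granule proteases, at 3.20 (SE 0.25), Acp5 at 2.84 (SE 0.16) and Acp2 at 1.95 (SE 0.14) among the raised and Galc at −2.69 (SE 0.15) and Atp6v0d2, a subunit of the proton pump, at −2.37 (SE 0.21) among the lowered. Without both deviating cultures 3 lysosome genes in place of 5 were lower.

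Of 25 genes of complement and coagulation, 10 rose and 5 fell (median 0.72). Of the 25, 6 passed the filter through LPS-treated cultures alone and 4 through controls alone. With no filter, 17 of 35 were called higher and 6 lower. Serpina3f, a serine protease inhibitor, had no count in any control and 17.7, 16.6, 16.9 and 12.2 CPM with LPS, at least 1761-fold more. Cfb, factor B of the alternative pathway, was at 13.6, 8.52, 19.9 and 0.378 CPM with LPS against 2 counts in all controls, with LPS replicate 4 far below the others, and much of its sequence is shared with an overlapping gene. F13a1, the clot-stabilising factor XIII, fell by 3.93 on the log2 scale (SE 0.62). Of 30 genes of matrix, proteases and adhesion, 10 rose and 3 fell (median 0.55, and −0.03 with library size scaling). The metalloproteases Mmp25 (7.07, SE 0.46), Mmp14 (5.80, SE 0.34) and Mmp13 (4.06, SE 0.16) led the rise, and the laminin-binding integrin Itga6 fell (−1.67, SE 0.19). The adhesion molecule Icam2 was at −1.07 (SE 0.15), and at −0.98, below the threshold, without LPS replicate 1. Cd44 was at −1.02 with all cultures and −0.93, below the threshold, without both deviating ones. It was called in 5 of the 9 fits that left out 1 culture. Of 15 antimicrobial and acute phase proteins, 8 rose and 1 fell (median 2.39). Of the 15, 6 passed the filter through LPS-treated cultures alone and 1 through controls alone. With no filter, 11 of 26 were called higher and 1 lower. Among the 15, the one that fell was Lyz2, at 10711, 12285, 12995, 11316 and 3349 CPM in controls and 3925, 4205, 4834 and 2264 CPM with LPS. The groups overlapped for Lyz2 through Control replicate 5 (−1.38, SE 0.39, adjusted p = 0.014). Of 31 genes of the actin cytoskeleton and migration, 4 rose and 1 fell (median 0.32, and −0.25 with library size scaling). The share that rose, 12.9%, was near the 15.3% of all tested genes. Without both deviating cultures 2 genes of the antimicrobial list and 2 of the actin list were lower.

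The late state was set against the LPS response at 3.5 h, when other cultures of the study had the same dose (4 with LPS and 5 controls). The test was the change of the LPS effect from 3.5 h to 16 h, fitted over 18 cultures and 8748 genes. In it 26.3% of the genes were called, 13.5% with a more positive and 12.8% with a more negative LPS effect at 16 h. This test and the comparison at 16 h share the 9 cultures of 16 h.

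**Figure D4:**
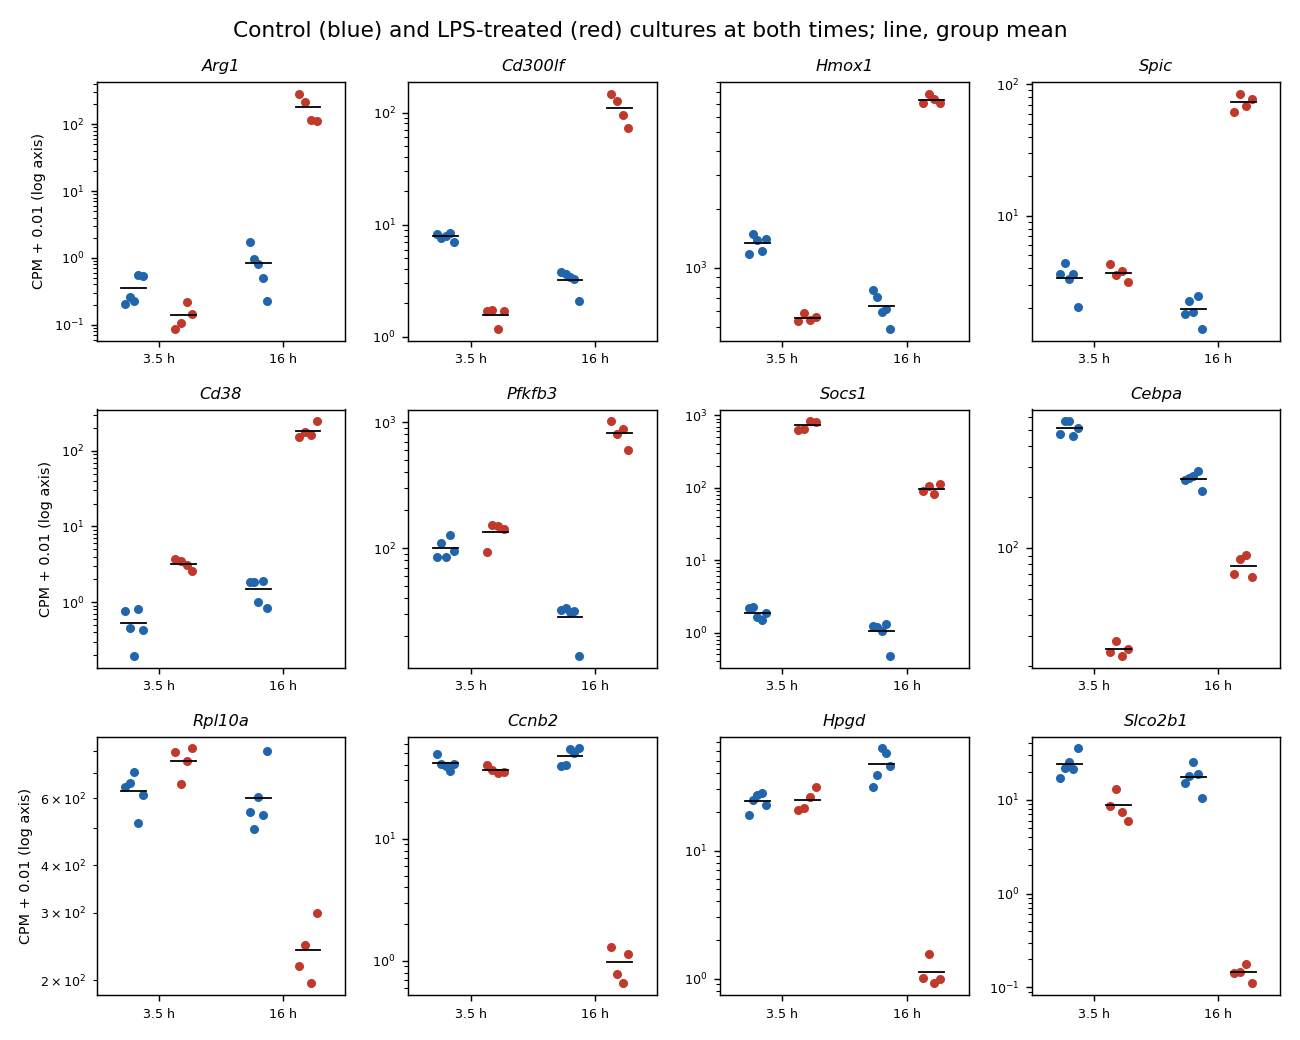
Levels of 12 genes in control (blue) and LPS-treated (red) cultures at 3.5 h and 16 h, as CPM + 0.01 on a log axis with group means as lines. Cd300lf and Hmox1 lie below control at 3.5 h and above it at 16 h with LPS; Arg1 overlaps control near the bottom of its axis at 3.5 h and lies above it at 16 h; Cebpa lies well below control at 3.5 h and nearer to it at 16 h; Ccnb2 and Hpgd separate from control at 16 h, and Rpl10a overlaps control at 3.5 h and lies below it at 16 h with LPS.

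Among genes called in both tests, the largest late gains were in Gm47242, Gm32089, Cd300lf, Prm1, A630012P03Rik and Arg1. Arg1 had a mean of 0.344 CPM in controls and 0.129 CPM with LPS at 3.5 h, where the groups overlapped, and its LPS effect changed by 9.18 on the log2 scale by 16 h (SE 0.79, adjusted p = 6.9e-08). Cd300lf, an inhibitory receptor for lipids of dying cells, was at 7.84 CPM in controls and 1.56 CPM with LPS at 3.5 h; at 16 h it was at 3.76, 3.66, 3.38, 3.26 and 2.07 CPM in controls and at 146, 127, 96.1 and 72.4 CPM with LPS, a change of 7.44 (SE 0.30). Prm1, a protamine of sperm chromatin, A630012P03Rik and Gm47242 had no count in controls at 16 h, and Prm1 was at 1.32, 2.36, 2.37 and 4.03 CPM with LPS. Prm1 passed the filter at 16 h through LPS replicate 4, the highest, and was not tested in the comparison at 16 h without that culture. The largest late losses were in Lrr1, Ube2c, Ccna2, Slco2b1, Ccnb2 and Hpgd. Ccnb2 was at 41.3 CPM in controls and 36.6 CPM with LPS at 3.5 h, so that its LPS effect changed by −5.43 (SE 0.24), and Ube2c, the ubiquitin enzyme of the anaphase complex, was at 67.2 and 87.3 CPM (change −5.59, SE 0.59). Slco2b1, an organic anion transporter, was at 24.2 and 8.71 CPM at 3.5 h and at 15.1, 18.1, 25.1, 19.1 and 10.5 CPM in controls and 0.134, 0.134, 0.168 and 0.101 CPM with LPS at 16 h (change −5.50, SE 0.44).

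By function, the effect was more negative at 16 h for 33 of 37 mitosis genes, 28 of 39 replication genes and 30 of 76 ribosomal proteins, and more positive for 1, 1 and 0 of them. For Rpl10a the level was 625 CPM in controls and 752 CPM with LPS at 3.5 h. More positive effects were found for 14 of 24 factors of macrophage identity, against 3 more negative. Cebpa was at 517 CPM in controls and 25.0 CPM with LPS at 3.5 h, and at 253, 261, 267, 285 and 218 CPM and 70.1, 85.6, 90.7 and 67.4 CPM at 16 h (change 2.69). Hmox1, below control at 3.5 h (555 against 1338 CPM), changed by 4.83, Spic by 5.13, Pfkfb3 by 4.47 and Cd38 by 4.38. Among cytokines 7 of 26 effects were more positive and 6 more negative, and among chemokines 4 and 7 of 21. Among the feedback inhibitors 8 of 33 were more positive and 6 more negative; Socs1, at 729.6 CPM with LPS at 3.5 h, was at 91.4, 105, 81.3 and 111 CPM at 16 h (change −2.05). Cd40 (−1.41), Batf2 (−1.91), Ifih1 (−1.70) and Ch25h (−1.87) were also above control at both times with a smaller effect at 16 h.

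**Figure D5:**
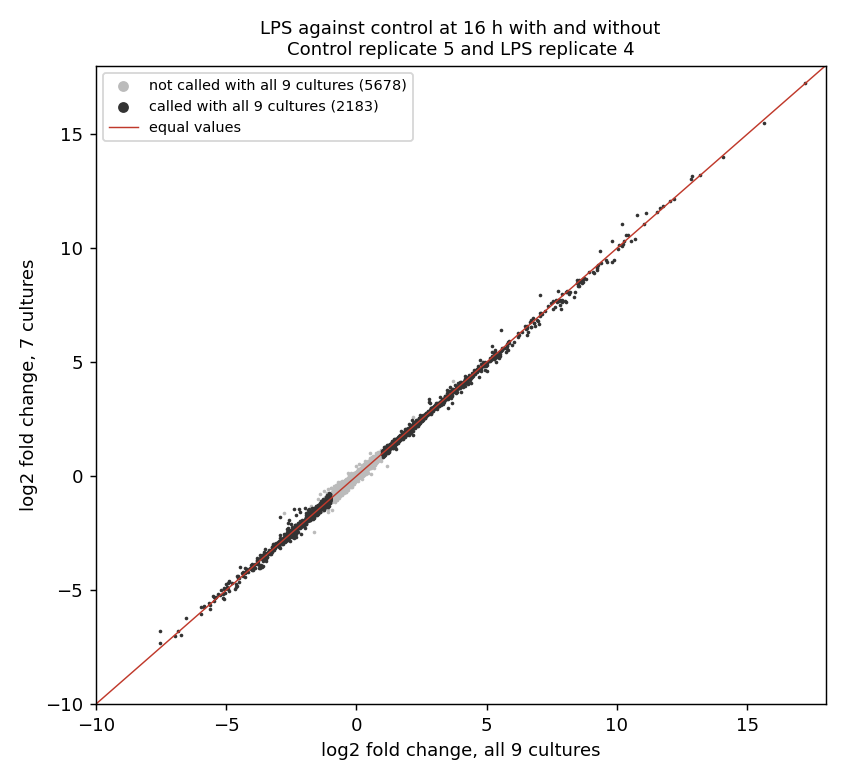
Log2 fold change of LPS against control at 16 h with all 9 cultures (horizontal axis) and with the 7 cultures left without Control replicate 5 and LPS replicate 4 (vertical axis); dark points are the 2183 genes called with all 9 that could be tested in both, grey points the others, and the red line marks equal values. Most points lie near the line, and a group of lowered genes lies above it with a smaller decrease in the 7 cultures.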

How the data were processed

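Bulk RNA of 28 cultures was sequenced, of which the 4 LPS-treated and 5 control cultures at 16 h were compared. The authors mapped the paired-end reads to mouse GRCm38 (mm10) with STAR, and the deposited table holds their counts for each Ensembl gene, whole numbers without normalization. The sources used here do not give the annotation release, the strand setting or the treatment of reads with several matches, so overlapping and antisense genes and genes with near-identical copies are uncertain. The count table lists 54532 genes.

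From these counts TPM was computed over exon-union lengths of the GENCODE M21 annotation (16 rows with a count, 0.00259% of all counts, had no match), and genes with at least 10 TPM in at least 1 culture of the comparison were tested, the filter of the study's methods. The quasi-likelihood test of edgeR (4.0.16, R 4.3.3, robust, TMM factors) was fitted on group alone, and p values were adjusted by Benjamini-Hochberg over all tested genes. DESeq2 (1.42.0), which the study used, and limma voom (3.58.1) were alternatives, as were other scalings, filters and fold thresholds, all groups in one fit, a replicate block and fits without 1 or both deviating cultures. CPM was scaled with TMM factors over all 28 cultures. The fits were tested on simulated data with known changes. A group without counts was set at a floor of 3 counts over the group (0.00906 CPM in controls), and counting intervals are at 95% and cover counting error only. No 2 cultures of a group agreed within sampling noise (the lowest chi-square per degree of freedom was 27.2 over 16 pairs).

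Genes were named by rule: the 10 protein-coding genes with the largest fold changes and the 8 with the largest changes in TPM in each direction, of those called without overlap, up to 3 per function list in each direction, 6 per direction for the change between times, and cell type markers. Some genes of the lists are not reported here by name. The lists, and the comparison itself, were chosen with earlier results of these data known. Promoters were taken from RefSeq.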

Additional observations from a re-analysis of the deposited data

Results flagged for a closer look

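Single cultures stood apart from their group in 66 of 400 groups of values (a gap to the nearest culture over 0.710 of the range of 5 cultures or 0.829 of that of 4), where chance gives about 5%. Control replicate 5 accounted for 43 and LPS replicate 4 for 8. The values of 1 culture are not independent of each other, and their cause was not tested.

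Control replicate 5 had 11.4% of its counts on ribosomal protein genes, 16.2% on its 10 most abundant genes and 16690 genes with a count. It was the highest control, in CPM, for Lpl (11864), Hexa (2959), Ckb (2606), Ptma (1996), Crip1 (1728), Cd44 (1282), Rpl3 (1210.5), Bst2 (647), Pgls (561), Slfn2 (406), Ube2c (282), Acp2 (154), Sms (144), Qdpr (139), Rrm2 (121), Cx3cr1 (109), Acadm (104), Hadh (85.0), Scap (82.2), Zfp36l1 (65.6), Saa3 (37.8), Cd276 (28.4), Mlkl (21.5), Ltc4s (18.9), Fabp3 (18.5) and Lrr1 (15.3). It was the lowest control for Lyz2 (3349), B2m (2108), mt-Nd2 (258), Cd68 (216), Itgam (159), Ephx1 (72.1), Il4ra (48.2), Idh2 (39.0), Steap3 (25.7), the copper transporters Slc31a1 (23.7) and Slc31a2 (12.3), Pfkfb3 (13.9), Cd274 (10.7) and Fpr1 (0.193).

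Control replicate 4 was the highest control for genes that rose with LPS, at low levels: H2-Ab1 (33.4 CPM), Acod1 (12.6), Il1b (6.71), Fpr2 (2.33), Il1a (2.07), Il6 (0.342), Nos2 (0.0651) and Cfb (0.0326). The single count of Cxcl11 in controls was in replicate 1 (0.0135 CPM) and both counts of Gm15056 were in replicate 2 (0.0235 CPM).

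LPS replicate 4 had 16011 genes with a count. It was the highest LPS-treated culture for Mmp14 (1842 CPM), Slfn5 (1707), Ptma (538), Ube2c (5.39) and Ltc4s (3.91) and the lowest for Slfn1 (353.7) and Batf2 (67.5). LPS replicate 3 was highest for Fpr2 (325) and Uhrf1 (4.96). LPS replicate 2 was highest for Hpgd (1.54) and lowest for Cd276 (3.36), and LPS replicate 1 was lowest for Icam2 (5.73).

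The LPS effect differed between 3.5 h and 16 h, by the test of the difference itself, for the 12 genes named by that rule. It was more positive at 16 h, on the log2 scale, for Arg1 (9.18), Gm47242 (8.09), Gm32089 (7.73), Cd300lf (7.44), Prm1 (6.97) and A630012P03Rik (6.76). It was more negative for Lrr1 (−6.81), Ube2c (−5.59), Ccna2 (−5.57), Slco2b1 (−5.50), Ccnb2 (−5.43) and Hpgd (−5.40).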

How the results depend on the processing

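No called gene changed sign in any alternative, and 1828 of the 2210 called genes were called in all 9 fits that left out 1 culture. The count of called genes lay between 2110 (without LPS replicate 1) and 2309 (without LPS replicate 4) in these fits. It was 2253 with DESeq2, 2303 with limma voom, 3101 with library size scaling, 4293 (2185 higher, 2108 lower) with no fold threshold and 1470 (585 lower) with a test against a fold of 2. Library size scaling gave 782 higher and 2319 lower. With filterByExpr 4086 genes (2093 higher, 1993 lower), and with no filter 4224 (2299 higher, 1925 lower), were called, as more genes were tested. The change of the LPS effect between times was called for 2301 genes with the main settings, 4267 with no fold threshold, 3786 with filterByExpr, 3611 with no filter and 1106 against a fold of 2, and for 2104 to 2683 without 1 culture. Of the 195 genes named, 168 kept their call in every alternative in which they were tested. Some, such as Gm4841, were not tested in all alternatives. The other named genes lost or gained their call in at least 1 alternative.

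With the replicate number as a replicate block 2266 genes were called at 16 h and 2261 for the change between times. Deviations of same-numbered cultures correlated at −0.78 to 0.72 over 4 pairs, and 1 of 4 LPS-treated cultures correlated best with the control of its number, so the numbers were not taken as pairs. The depth of at least 49191460 counts leaves genes with a few counts in controls with folds that depend on the floor.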

Other observations

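The gene families and transcripts below were picked after their values were seen, and are given as counts and levels without a test of the family. Over all tested genes 15.3% were higher and 12.4% lower. The expression filter favours genes that change. How many members of each family passed it through 1 group alone was not counted, so the family counts are not given as support. All 6 tested schlafen genes, interferon-inducible regulators of immune cell growth and of virus replication, were higher with LPS (median log2 fold change 4.43). Slfn4 and Slfn1 had control means of 0.927 and 1.15 TPM and passed the filter of 10 TPM through LPS-treated cultures. Slfn4 was at 1.08, 1.22, 1.66, 1.22 and 1.01 CPM in controls and at 1844, 1702, 1290.2 and 1150.0 CPM with LPS (10.27, SE 0.26), and Slfn1 at 0.155 to 1.06 CPM and 354 to 384 CPM (9.11, SE 0.50). Of 26 tested TRIM proteins 11 were higher and 3 lower. Of 37 proteasome subunits 11 were higher and none lower (median 0.69), and 9 were higher without both deviating cultures. Of 12 centromere proteins 10 were lower and none higher (median −2.56), and 6 were lower without both deviating cultures.

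Of 128 solute carriers, 26 were higher and 14 lower. Their median log2 fold change was −0.02, near the −0.03 of all tested genes, and a shift of the family as a whole was not tested. Slc28a2, a nucleoside importer, was at 19.3, 19.6, 24.1, 24.3 and 22.1 CPM in controls and at 954, 789.8, 710.2 and 693.5 CPM with LPS (5.21, SE 0.15). The copper importers Slc31a1 and Slc31a2 were both higher, by 2.86 (SE 0.24) and 3.79 (SE 0.27), and the amino acid transporter Slc7a8 by 2.52 (SE 0.17). Among 62 long intergenic RNAs 18 were higher and 9 lower. Mir155hg, the host transcript of miR-155, was at 0 to 0.0171 CPM in controls and 19.5, 20.2, 17.6 and 10.7 CPM with LPS. AW112010 was at 4.13 to 6.94 CPM in controls and 1922, 2336, 1581 and 2910.2 CPM with LPS (8.70, SE 0.28). Neat1, the RNA scaffold of paraspeckles, moved the other way, from 1095, 918, 872, 1013 and 698 CPM to 298, 336, 242.5 and 238 CPM (−1.69, SE 0.16).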
